A study of Mus musculus with 4 samples.

Results

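Matrix-producing myofibroblastic cancer-associated fibroblasts (CAFs) were examined in 4 single-cell RNA sequencing (scRNA-seq) libraries of KPC tumor grafts. A cell was a member if it had at least 200 genes, at least 4 of 9 fibroblast genes (Col1a1, Col1a2, Col3a1, Col5a1, Lum, Pdgfra, Pdpn, Fap and Mmp2), no UMI of Ptprc, which encodes the leukocyte antigen CD45, and more detected genes of Fbn2, Col8a1, Col12a1, Galnt17, Cthrc1 and Tnc than of any of 3 other sets. At least 2 of the 6 genes were needed, and ties were left out. The other sets mark fibroblasts with Wt1, Calca, Adgrd1, Ptgis, Pappa and Sntg1 (W class), Clec3b, Chl1, Svep1, Abi3bp, Dpt and Sfrp1 (C class), or Apod, Thbs4, Ptx3, Cilp, Tac1 and Gfpt2 (A class). The rule found 1770 members among 4244 cells in the fibroblast gate and 44554 cells in all.

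KPC FC1242 cells, a mouse pancreatic cancer line, were grafted into the pancreas of mice made obese by 24 weeks of high-fat diet. Tumors were taken after 25 days of treatment. The labels give the background of every group as C57BL/6, and the study's methods name C57BL/6J for the mice given D-CAN. Pdgfrb-TK mice carry thymidine kinase under the Pdgfrb promoter, so that ganciclovir (GCV) is toxic to cells in which that promoter is active. They received GCV at 50 mg/kg by intraperitoneal injection (Pdgfrb-TK/GCV) or PBS (Pdgfrb-TK/PBS). Wild-type mice received D-CAN at 30 mg/kg under the skin (D-CAN), a peptide of D-amino acids that joins a sequence homing to adipose stromal cells with one that induces apoptosis, or PBS (WT/PBS). Both agents were given every other day. The labels give the mice of every group an age of 7 months. The study's methods give a higher age at grafting, and the difference could not be settled. Suspensions were pooled by treatment, which left 1 library per condition, no replicate and therefore no test. Where 4 values follow each other without names, they stand for Pdgfrb-TK/GCV, its control Pdgfrb-TK/PBS, then D-CAN and its control WT/PBS. Every interval below is a 95% interval for counting error alone, and PBS libraries of the same model served as controls.

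Myofibroblastic CAFs are activated fibroblasts that lie close to tumor cells, assemble actin stress fibers and secrete the collagens and glycoproteins of the desmoplastic stroma for which pancreatic cancer is known. TGF-β signaling favors this state, whereas inflammatory CAFs (iCAFs) secrete cytokines and complement and antigen-presenting CAFs (apCAFs) carry MHC class II. Mural cells of vessels, such as pericytes, share many contractile genes with myofibroblasts.

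The deposited counts held 127722502, 84020317, 130115741 and 155408336 UMIs (unique molecular identifiers, each marking 1 captured transcript). From these, 12280, 10469, 10178 and 11627 cells were kept, with a median of 6950, 5203, 4514.5 and 7421 UMIs. Between 26 and 42 cell barcodes were shared by each pair of libraries, and 1 barcode was a member in both D-CAN and WT/PBS. Among members, the median was 12133.5, 5336, 13877.5 and 12164 UMIs. Members of Pdgfrb-TK/PBS were therefore the shallowest.

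Members made up a far smaller part of both treated libraries than of their controls. There were 28, 141, 228 and 1373 members, so that WT/PBS alone held 77.6% of them. As a share of cells kept these were 0.228% (0.152 to 0.329), 1.35% (1.13 to 1.59), 2.24% (1.96 to 2.55) and 11.8% (11.2 to 12.4). The share was 5.91-fold lower (3.92 to 9.21) in Pdgfrb-TK/GCV than in Pdgfrb-TK/PBS and 5.27-fold lower (4.58 to 6.09) in D-CAN than in WT/PBS. With at least 3 rule genes per member, which left 16 with GCV, the ratio of shares for GCV was 0.11 in place of 0.169. Without members that carried 2 epithelial or 3 pericyte markers (both described below), it was 0.0874, on 4 members with GCV. For D-CAN the ratio was then 0.329 in place of 0.190. The PBS libraries were themselves apart, with the share of Pdgfrb-TK/PBS 8.77-fold lower (7.37 to 10.5) than that of WT/PBS. D-CAN therefore lay below WT/PBS but 1.66-fold above Pdgfrb-TK/PBS, and intervals of the 4 libraries did not overlap.

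The fibroblast gate as a whole, members included, was also a smaller part of both treated libraries. Cells in the fibroblast gate were 2.49%, 5.11%, 11.7% and 19.0% of cells kept. Within the gate, members were 9.15% (6.17 to 13.0), 26.4% (22.7 to 30.3), 19.2% (17 to 21.5) and 62.0% (60.0 to 64.1), so that the difference was 2.88-fold for GCV and 3.24-fold for D-CAN. The W class was 70.3% of the gate in Pdgfrb-TK/GCV and 45.6% in Pdgfrb-TK/PBS, and the C class was 43.9% of the gate in D-CAN against 2.89% in WT/PBS. As shares of cells kept, the C class was 9.32-fold higher with D-CAN and 9.05-fold lower with GCV than in the control, and the W class was at 1.22 and 0.751 times its control. The class that stood first thus differed between the libraries. A share can move because one class loses cells or because another gains them, and with pooled suspensions these cannot be told apart.

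**Figure D1:**
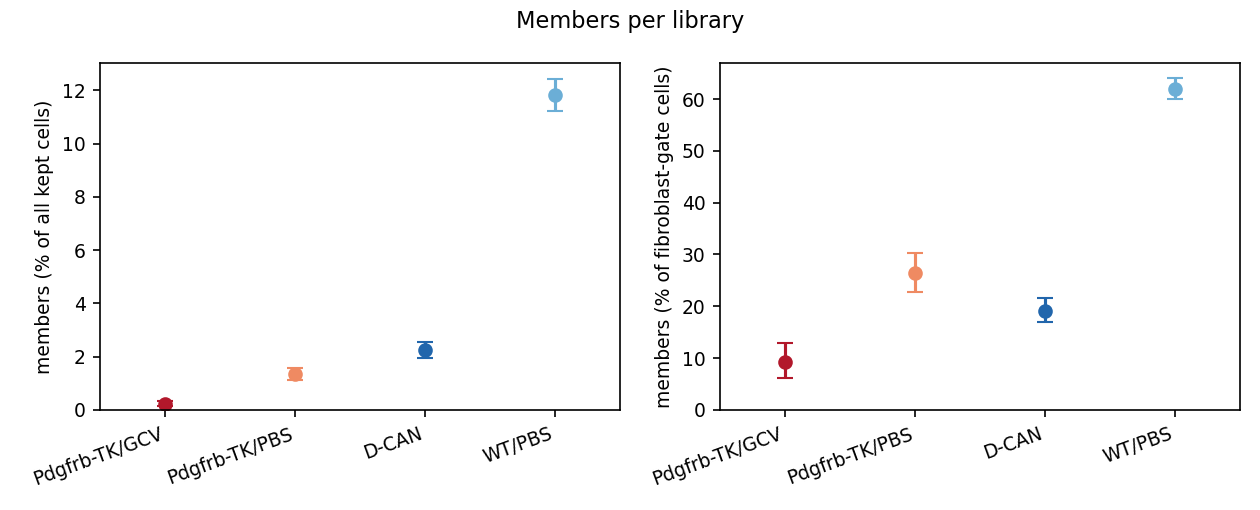
Members as a percent of all kept cells (left) and of cells in the fibroblast gate (right) in each library, with points for the share and bars for exact 95% Clopper-Pearson intervals. WT/PBS stands highest in both panels, at 11.8% and 62.0%, and Pdgfrb-TK/GCV lowest, at 0.228% and 9.15%.

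The 6 genes of the rule, given here as a description, were not equally detected. All 6 were found in 3.57%, 9.22%, 19.7% and 36.0% of members. Exactly 2, the minimum, were found in 42.9%, 12.1%, 16.2% and 9.10%. The members of Pdgfrb-TK/GCV thus lay closest to the threshold. These shares, and those of epithelial and pericyte markers below, were taken without thinning cells to 1 depth. Just outside it, 3, 10, 26 and 114 gate cells had 1 of the genes and none of the other sets, and 26, 23, 124 and 219 gate cells were tied with another class.

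Many members also carried epithelial transcripts. At least 4 of 9 epithelial and tumor cell markers (Epcam, Krt7, Krt8, Krt18, Krt19, Cdh1, Cldn4, Cldn7 and Muc1) were detected in 5, 30, 31 and 282 members, or 17.9%, 21.3%, 13.6% and 20.5%. These 348 cells were rich in UMIs, with medians of 26199, 12382.5, 43195 and 30544.5, and held 29.1%, 46.3%, 40% and 47.8% of all UMIs of the members. Their summed epithelial markers stood at 3232, 7117, 5978 and 6938 CPM (UMIs of a gene per 1000000 UMIs of the cells summed), beside 6597, 8745, 6072 and 8341 CPM in KPC tumor cells, from which Pdgfrb-TK/GCV was farthest. KPC tumor cells are here all cells outside the fibroblast gate with at least 4 of the same markers. Both sets were thus chosen by these markers, so that their high sums are a description. Among them, 40%, 60%, 19.4% and 34.4% were in the 8% of their library with the highest doublet scores, against 8.70%, 6.31%, 8.63% and 3.67% of the other members. Gene values are therefore given over the 1422 low-epithelial members, with at most 3 of the markers, a limit set after these counts were seen: 23, 111, 197 and 1091 cells. With these alone, the share was 5.66-fold lower with GCV and 4.85-fold lower with D-CAN.

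**Figure D2:**
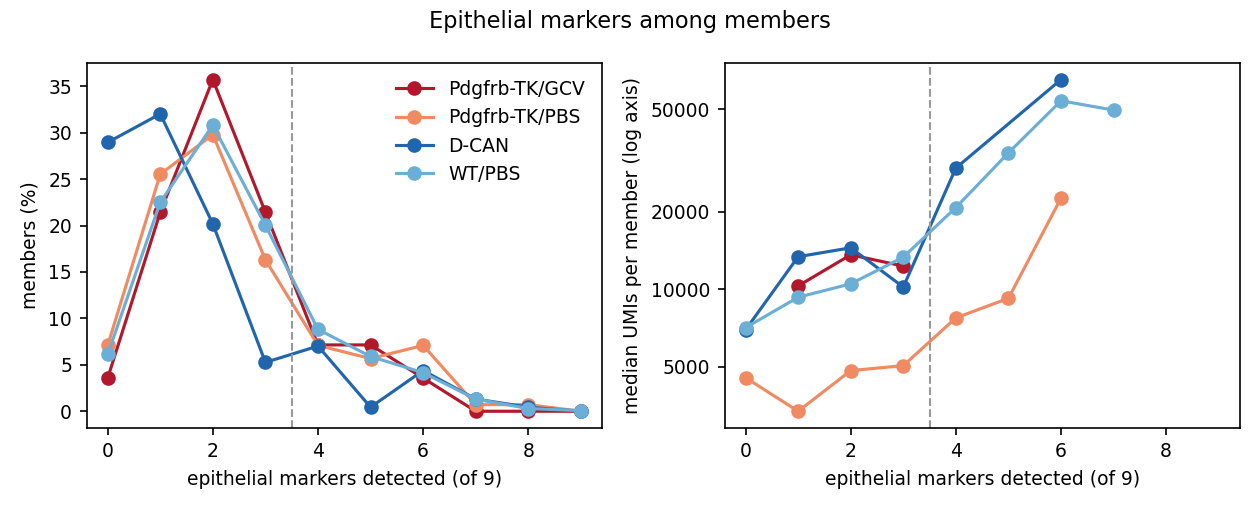
Percent of members of each library by the number of epithelial markers detected, out of 9 (left), and the median UMIs of these members on a log axis where at least 5 members had that number (right). The dashed line marks the limit of 3 markers, past which median UMIs are higher in the libraries with points there. Pdgfrb-TK/GCV has fewer than 5 members at each number past the line and no point there.

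Low-epithelial members carried CAF markers, and some carried markers of other host cells. The summed level of 8 CAF markers was 19951, 22710, 23223 and 21235 CPM, led by Sparc, a collagen-binding glycoprotein. Pericyte markers summed to 1220, 636, 1118 and 370 CPM, with Ndufa4l2 the most abundant. At least 3 of the 9 pericyte markers were found in 6, 18, 65 and 164 low-epithelial members. Endothelial markers summed to 257, 40.9, 46.8 and 74.2 CPM, led by Emcn, macrophage markers to 140, 57.7, 66.0 and 57.7 CPM, led by Lyz2, and neutrophil markers to 11.7, 20.5, 52.9 and 113 CPM, led by S100a9. T cell, B cell, acinar, Schwann cell, mesothelial and osteochondral markers each stayed under 50 CPM in sum in every library. Pericyte markers were thus higher in both treated libraries than in their controls.

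Levels of the rule genes differed between libraries even among cells chosen by them. Fbn2, which encodes the microfibril protein fibrillin 2, was at 124 CPM (85.1 to 176), 739 CPM (668 to 815), 423 CPM (400 to 448) and 601 CPM (588 to 615). Col8a1, a short-chain collagen gene at chr16:57624258-57754737 of mm10 on the minus strand, was at 361, 1537, 1072 and 1416 CPM. Col12a1, which encodes a fibril-associated collagen and lies at chr9:79598991-79718831 on the minus strand, was at 280, 1139, 1051 and 1710 CPM. All 3 were lowest with GCV.

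Cthrc1, a secreted protein of activated fibroblasts encoded at chr15:39076932-39087121 on the plus strand, behaved otherwise, with 311, 218, 194 and 372 CPM and the lowest level in D-CAN. Tnc, the matrix glycoprotein tenascin C at chr4:63959785-64047015 on the minus strand, was at 626, 1258, 1793 and 1366 CPM. Galnt17, a glycosyltransferase gene at chr5:130872082-131308497 on the minus strand, had 1 UMI in Pdgfrb-TK/GCV and stood at 169, 68.2 and 284 CPM in the others. After each cell was thinned to 2000 UMIs, Col8a1 was detected in 33.3%, 73.9%, 77.1% and 72.7% of low-epithelial members and in 0.139%, 0.209%, 0.474% and 1.95% of KPC tumor cells. Since Col8a1 was used to choose the members, the difference is a description.

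**Figure D3:**
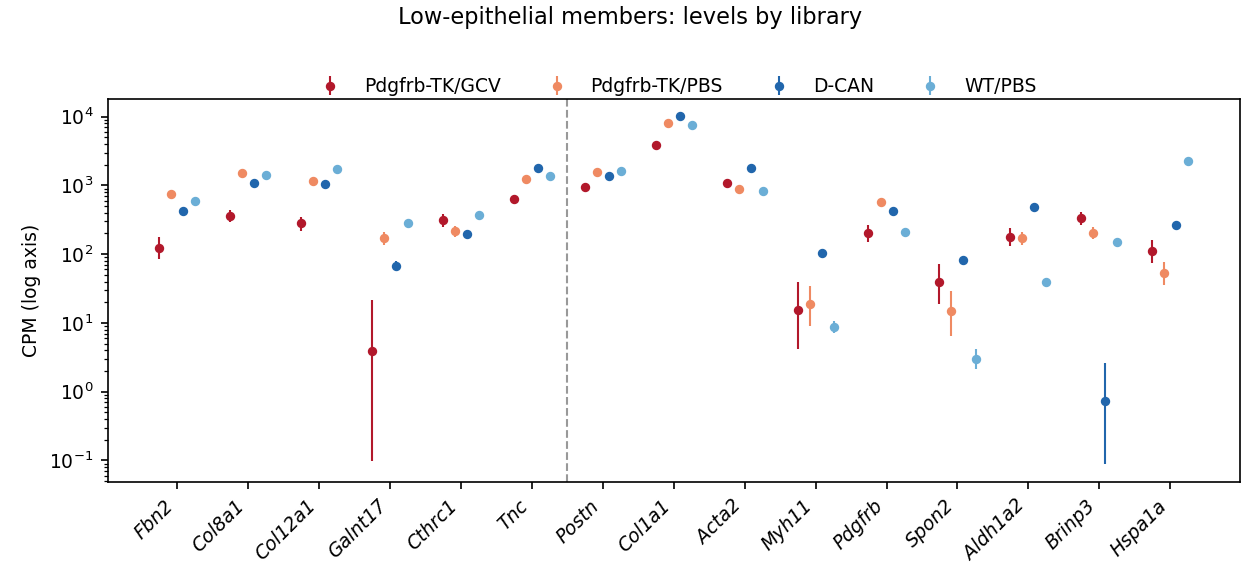
Level in CPM (log axis) of rule genes (left of the dashed line) and other named genes (right) in the low-epithelial members of each library, summed over 23, 111, 197 and 1091 cells, with exact 95% Poisson intervals. Fbn2, Col8a1 and Col12a1 are lowest in Pdgfrb-TK/GCV, Hspa1a is highest in WT/PBS, and Brinp3 rests on 2 UMIs in D-CAN.

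To see how members differed from other fibroblasts of the same tumor, their summed counts were set against those of W, C and A cells pooled. C and A cells were limited to at most 3 epithelial markers like the members, whereas all W cells were kept. Epithelial markers summed to 1971, 2843, 1874 and 1552 CPM in W cells and to 381, 566, 116 and 404 CPM in low-epithelial members. W cells were 215 of 221, 244 of 291, 99 of 601 and 93 of 193 pooled cells, so that the pool differed between libraries. The rule and the gate used genes of these cells, so that the comparison is a description. In WT/PBS, 118 of 3680 genes compared (3.21%) were at least 2-fold higher in members and 98 (2.66%) at least 2-fold lower. Of 57 matrix genes compared, with rule and gate genes left out, 14 were at least 2-fold higher and 3 at least 2-fold lower, and their median log2 difference was 0.55, beside -0.0029 over all genes compared. Differences are log2 of CPM + 1, which understates those of low genes. In the other 3 libraries the median for matrix genes was 0.60, 0.95 and 0.28. With all members against all W, C and A cells, epithelial transcripts included, it was 0.66, 0.50, -0.21 and 0.17, so that the direction turned in D-CAN.

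Among matrix genes, Postn, the matricellular protein periostin at chr3:54361109-54391037 on the plus strand, was at 948 CPM in members against 14.8 CPM in W, C and A cells of Pdgfrb-TK/GCV. The other libraries had 1572 against 76.0, 1370 against 233 and 1617 against 413 CPM. Aspn, a small leucine-rich proteoglycan that binds collagen, was at 35.0 against 0.295, 194 against 6.30, 187 against 42.7 and 288 against 53.4 CPM. Lrrc15, a membrane protein known from TGF-β-driven myofibroblasts, was listed at 0 in members of Pdgfrb-TK/GCV, where 3 UMIs would be 11.7 CPM, and reached 57.7, 49.3 and 111 CPM in the other libraries against 0.9, 3.61 and 4.14. Dcn, which encodes the proteoglycan decorin, went the other way, at 820 against 2187, 761 against 2303, 944 against 4460 and 1140 against 2491 CPM. Higher matrix levels were thus not general to all matrix genes.

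Averaged over the 4 libraries and with genes of the rule left out, the largest differences toward members were those of Rgs5, a regulator of G protein signaling and pericyte marker, with a mean log2 difference of 5.33, and of Mcam, an adhesion molecule of mural cells, with 4.16. Actg2, an enteric smooth muscle actin, followed with 3.75, Postn with 3.70, Aspn with 3.51, the potassium channel gene Kcnq3 with 3.49, Fibin with 3.48, Lrrc15 and Megf11 with 3.21 each and Shc4 with 2.96. Rgs5 and Mcam were markers of pericytes, whose share among members is given above. Rgs5 was at 4241 CPM in the 68 low-epithelial members of cluster 8 (described with the clusters) and at 22.9 CPM in the other low-epithelial members.

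The largest differences toward other fibroblasts were those of Cxcl13, a B cell chemoattractant, with a mean of -5.48, Slpi, a protease inhibitor, and Saa3, an acute phase protein, both with -4.34. Enpp2, the lipid enzyme autotaxin, Stmn2, Tmeff2, Ccl24, Prg4, Dmkn and Ccl2, a monocyte chemoattractant, were the other genes of the 10 largest in this direction. Contractile genes had a median log2 difference of 0.65, 1.09, 1.41 and 0.43 in members, iCAF genes of -1.69, -2.18, -1.90 and -0.89, and apCAF genes, with 4, 3, 5 and 2 genes compared, of -3.89, -4.58, -2.15 and -2.31. Members thus stood higher in contractile genes and lower in iCAF and apCAF genes in each library, with the pericyte markers named above at higher levels beside the contractile genes.

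The question for GCV was what remained of these cells when Pdgfrb promoter activity made cells sensitive to the drug. Pdgfrb itself, the receptor for PDGF-B, was at 202 CPM (151 to 265) in the 23 low-epithelial members of Pdgfrb-TK/GCV and at 568 CPM (506 to 635) in Pdgfrb-TK/PBS, and at 427 and 213 CPM in the wild-type libraries. It was 2.81-fold lower (2.09 to 3.84) with GCV than in its own control, at a level that overlapped that of WT/PBS. On the log2 scale this was -1.48, beside -0.98 over all members and -2.19 after thinning to 2000 UMIs before the rule. Such thinning left at most 23 members with GCV at 2000 UMIs each, so that thinned values with GCV, here and below, rest on few UMIs. Without members that carried 2 epithelial or 3 pericyte markers the log2 difference of Pdgfrb was -9.28, a value that rests on 4 members with GCV. Of 1297 genes compared, 17 (1.31%) were at least 2-fold higher with GCV and 96 (7.4%) at least 2-fold lower. With all members, 152 of 2270 genes (6.7%) were past 2-fold.

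Matrix genes moved unevenly with GCV. Of 41 compared, 2 were at least 2-fold higher and 9 at least 2-fold lower, with a median log2 difference of -0.22, beside 0.03 over all genes compared. Over all members the median had the opposite sign, at 0.11. Smoc2, a secreted calcium-binding matrix protein outside the list, lies at chr17:14279506-14404790 on the plus strand. It had no UMI with GCV and stood at 207, 115 and 263 CPM in the other libraries. Counting 3 UMIs over the members of Pdgfrb-TK/GCV as the floor, the measured level of Pdgfrb-TK/PBS was 17.7-fold above it, without the counting error of that level. With both counting errors, the interval for the ratio of GCV to its control reached up to 0.0706. Over all members Smoc2 had 1 UMI with GCV, with an interval up to 0.121. After thinning to 2000 UMIs before the rule its log2 difference was -3.32. Eln, which encodes elastin, was at 27.2 CPM with GCV and at 208, 431 and 300 CPM in the other libraries, in the same order. Among the rest of the 10 largest differences toward the control were the matrix genes Fndc1, Lama2 and Spon1, and Aspn. The rule gene Fbn2 and the gate gene Fap, a fibroblast protease, were also among them. All of these were 5.16-fold to 6.78-fold lower. Fbn2 and Fap were used to choose the members, so that their values are a description. Over all members, the log2 differences of Eln, Fndc1, Lama2 and Spon1 were -1.01, -1.26, -1.85 and -1.27. After the same thinning, the log2 differences of Eln and Fndc1 were -0.13 and -0.48, under 2-fold but on few UMIs with GCV. Sfrp1, a secreted Wnt inhibitor and C class rule gene, was 6.88-fold lower (4.32 to 11.6), or at -1.12 on the log2 scale when thinned and -2.02 over all members, and Kcnq3 rested on 3 UMIs with GCV, a 16.3-fold difference with an interval from 5.41 to 80.2.

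In low-epithelial members, the 7 fibrillar collagens listed summed to 13060 CPM with GCV against 26941 CPM in Pdgfrb-TK/PBS. Over all members the sums were 14349.5 and 19015.9 CPM. In the 5 and 30 members with at least 4 epithelial markers they went the other way, at 17494 and 9814 CPM. Fibrillar collagens of the gate were used to choose the members, so that their levels in low-epithelial members are a description. Col1a1, the α1 chain of type I collagen, was at 3864, 8124, 10057 and 7622 CPM, and Col3a1, of type III collagen, at 3028, 7488, 9207 and 6451 CPM. Col6a2, of the beaded-filament collagen VI, was at 257 CPM with GCV and at 908, 654 and 765 CPM in the others, and its log2 difference of -1.82 was -0.67 after thinning before the rule. Sparc was at 7723, 8653, 10475 and 8902 CPM and the fibronectin gene Fn1 at 5461, 4602, 2736 and 2347 CPM.

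Among genes that stood higher with GCV, Col18a1, a basement membrane collagen whose fragment is endostatin, at chr10:77052178-77166548 on the minus strand, was at 412 CPM (337 to 498) with GCV and at 74.4 CPM (53.2 to 101) in Pdgfrb-TK/PBS, 5.54-fold higher (3.81 to 8.18). After thinning to 2000 UMIs before the rule its log2 difference turned to -0.41, and without members that carried 2 epithelial or 3 pericyte markers it was 1.25 in place of 2.45. In the wild-type libraries it was at 146 and 63.5 CPM, and in KPC tumor cells of the GCV model at 231 and 241 CPM. Timp1, an inhibitor of metalloproteinases at chrX:20870166-20874735 on the plus strand, was at 5578 CPM (5293 to 5874) with GCV and at 1941, 3729 and 1677 CPM in the others, 2.87-fold higher (2.65 to 3.12) than in its control. Cdkn1a, a p53 target that arrests the cell cycle, was at 428, 138, 143 and 153 CPM, 3.1-fold higher (2.29 to 4.23). Id3, an inhibitor of helix-loop-helix factors, and Hbegf, an EGF family ligand, were 3.06-fold and 3.83-fold higher. Thinned before the rule, Id3 and Cdkn1a were at 0.37 and 0.98 on the log2 scale, under 2-fold, and Hbegf was at 1.90. Timp1 and Cdkn1a were highest in Pdgfrb-TK/GCV among the 4 libraries. Summed endothelial, pericyte and macrophage markers also stood higher with GCV than in its control, at 257 against 40.9 CPM, 1220 against 636 CPM and 140 against 57.7 CPM, and their part in the values with GCV was not tested. Without clusters 5, 8 and 11 (described with the clusters), the endothelial sum turned to 15.8 against 21.9 CPM, while the pericyte and macrophage sums stayed higher, at 749.7 against 493 CPM and 132 against 59.2 CPM.

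Hmga2, a chromatin protein, was 4.0-fold higher and stood at 268, 67, 38.1 and 41.3 CPM in members and at 731, 370, 634 and 374 CPM in KPC tumor cells. Ecm1, Neat1, Sox4 and Hist1h2bc completed the 10 largest and were 2.44-fold to 3.11-fold higher. Over all members, Hmga2, Neat1 and Sox4 were at log2 differences of 0.75, 0.54 and 0.55, under 2-fold. Thinned before the rule, Hmga2 was at 1.09 and Neat1 at 0.090, and with at least 3 rule genes per member Hmga2 was at 0.50. Hmga2, Sox4 and Neat1 were at higher levels in KPC tumor cells than in members of every library, and the part of tumor cell RNA in their values was not tested. When members with at least 2 epithelial or at least 3 pericyte markers were left out, 4 members remained in Pdgfrb-TK/GCV, and Hmga2 and Neat1 turned to log2 differences of -0.42 and -2.59.

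Other lists were thin in the 23 members. Of 8 hypoxia and glycolysis genes compared none was past 2-fold, with a median log2 difference of 0.67, and 1 of 3 p53 targets, Cdkn1a, was at least 2-fold higher. Contractile genes had 1 of 13 at least 2-fold lower, Actg2, and none higher, with a median of -0.18. Proteases and their inhibitors had 1 of 10 higher, Timp1, and 3 lower. No gene of 16 ribosomal protein genes was past 2-fold, with a median of 0.21. In W cells of the same libraries, iCAF genes had a median of 1.06, whereas 3 iCAF genes were compared in members, with a median of -0.49, and the difference between the classes was not tested.

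The question for D-CAN was the same in wild-type mice. Of 4026 genes compared between low-epithelial members of D-CAN and WT/PBS, 321 (7.97%) were at least 2-fold higher with D-CAN and 273 (6.78%) at least 2-fold lower. With all members, 429 of 3980 genes (10.8%) were past 2-fold. Most contractile and interferon response genes compared stood higher with D-CAN, whereas most immediate early and heat shock genes stood lower and matrix genes were mixed.

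**Figure D4:**
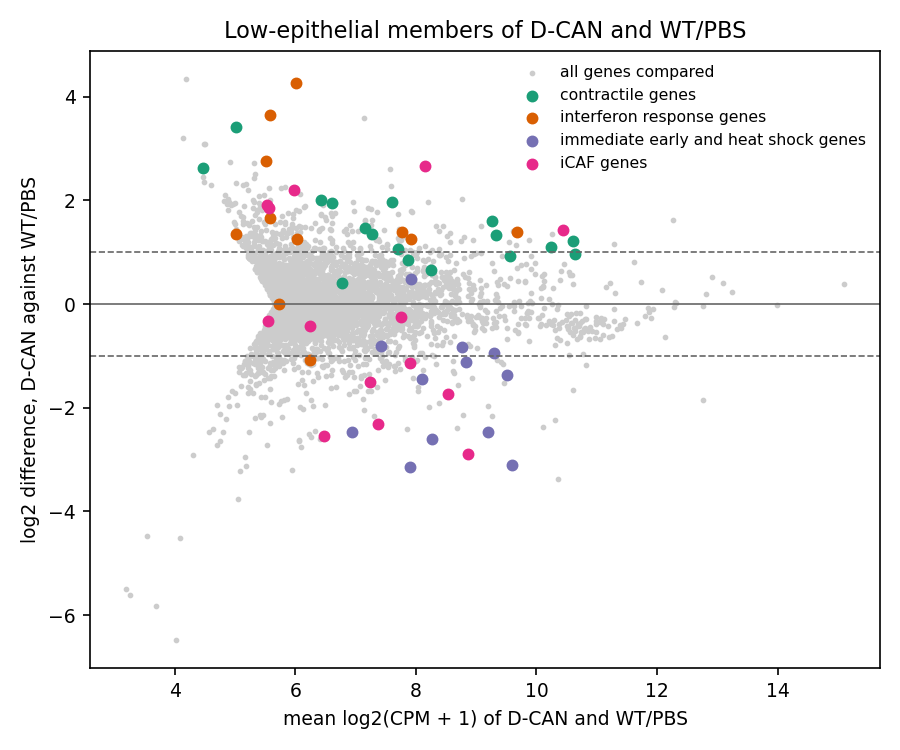
Log2 difference of CPM + 1 between low-epithelial members of D-CAN and WT/PBS against the mean level, with grey points for the 4026 genes compared and colored points for 4 gene lists. Dashed lines mark 2-fold, and contractile genes (median 1.32) and interferon response genes (median 1.38) lie mostly above the upper line while most immediate early and heat shock genes (median -1.40) lie below the lower line.

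Matrix genes differed less than the contractile genes. Of 57 compared, 9 were at least 2-fold higher with D-CAN and 3 at least 2-fold lower, with a median log2 difference of 0.22, beside 0.05 over all genes compared and 0.30 over all members. Col15a1, a collagen of basement membrane zones, was at 917, 1342, 1437 and 611 CPM in library order, 2.35-fold higher (2.26 to 2.45) with D-CAN than in WT/PBS. Emilin1, an elastic fiber glycoprotein, was at 132, 154, 269 and 87.2 CPM, 3.09-fold higher (2.81 to 3.39), and the proteoglycan gene Prelp was 3.23-fold higher. Spon2, a secreted matrix protein outside the list, at chr5:33198184-33218455 on the minus strand, was at 38.9, 14.9, 80.9 and 3.03 CPM, 26.7-fold higher (18.8 to 38.9) with D-CAN. With a pseudocount of 10 CPM its log2 difference was 2.80, under the 3.62 of Iigp1, and over all members it was 3.32, also under Iigp1 at 4.56.

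Matrix genes lower with D-CAN were Col11a1, a minor fibrillar collagen, at 19.4, 151, 55.5 and 147 CPM, Thbs2, the matricellular protein thrombospondin 2, at 202, 597, 464 and 1001 CPM, and Fbln5, an elastic fiber protein, at 23.3, 39.1, 41.3 and 86.7 CPM. They were 2.66-fold, 2.16-fold and 2.10-fold lower than in WT/PBS. Smoc2, a matrix gene outside the list, was also lower with D-CAN, at the levels given with those of GCV. None of 16 secretory pathway genes was at least 2-fold higher and 1 was lower, and none of 8 CAF markers passed 2-fold, with a median of 0.11. Timp1 was 2.22-fold higher (2.17 to 2.28) with D-CAN. The proteases and inhibitors held 2 genes higher and 2 lower among 18.

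Contractile genes stood higher with D-CAN in 12 of 17 compared and lower in none, with a median log2 difference of 1.32. Acta2, which encodes α smooth muscle actin and lies at chr19:34241090-34255590 on the minus strand, was at 1077, 891, 1776 and 822 CPM, 2.16-fold higher (2.09 to 2.23) with D-CAN than in WT/PBS. Thinned before the rule, Acta2 was at a log2 difference of 0.34, under 2-fold, and the contractile median was 0.74. Tagln, the actin-binding protein transgelin, was at 871, 943, 2379 and 1024 CPM. Myh11, smooth muscle myosin heavy chain at chr16:14194535-14291372 on the minus strand, was at 15.5, 18.6, 104 and 8.84 CPM, 11.8-fold higher (9.44 to 14.9) than in WT/PBS. The log2 difference of Myh11 was 3.42, beside 2.74 thinned before the rule and 2.43 against Pdgfrb-TK/PBS. D-CAN was the highest of the 4 libraries for Acta2, Tagln and Myh11.

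Pericyte markers moved with the contractile genes, at least 2-fold higher with D-CAN in 5 of 6 compared and with a median of 1.73. Without members that carried at least 3 pericyte markers, the contractile median was 1.03 and the log2 differences of Acta2 and Tagln were 0.60 and 0.98, whereas that of Myh11 was 4.40. Rgs5, at 248.8, 40.9, 379 and 113 CPM, turned from 1.74 to -2.24, but it is one of the markers by which these members were left out, so that this is no independent value. Thinned before the rule, with no such choice, it was at -2.05. Against the members of Pdgfrb-TK/PBS, the contractile median of D-CAN was 0.66. C cells of D-CAN and WT/PBS differed by a median of 1.45 and W cells by 0.41. Among members with at most 2 pericyte markers, 8 of 16 contractile genes were at least 2-fold higher with D-CAN, and Acta2 and Tagln were no longer past 2-fold. The part of pericyte RNA in these values was not tested.

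Promoters of these genes are shown because most genes of the list stood higher with D-CAN. The CArG box, the binding motif of serum response factor, was searched on both strands in 300 bases from RefSeq, from 250 before to 50 after the gene start. It was found in 3 of 16 matched contractile genes (18.8%) and in 535 of 32851 promoters (1.63%). A gene counted if any of its promoters had the motif, so that these shares have unlike units. In Myl9, regulatory myosin light chain, at chr2:156775214-156775513 on the plus strand of GRCm38.p6, and Cnn2, a calponin, at chr10:79988350-79988649 on the plus strand, capitals mark the motif. The third was Vcl, vinculin. Myl9 was at 155, 149, 246 and 95.4 CPM and Cnn2 at 124, 149, 236 and 84.3 CPM.
Myl9: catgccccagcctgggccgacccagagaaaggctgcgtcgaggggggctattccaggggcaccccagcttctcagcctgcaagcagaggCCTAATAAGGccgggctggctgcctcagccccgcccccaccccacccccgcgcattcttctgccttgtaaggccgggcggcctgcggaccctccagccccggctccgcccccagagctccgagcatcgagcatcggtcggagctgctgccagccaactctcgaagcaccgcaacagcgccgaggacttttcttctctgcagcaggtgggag
Cnn2: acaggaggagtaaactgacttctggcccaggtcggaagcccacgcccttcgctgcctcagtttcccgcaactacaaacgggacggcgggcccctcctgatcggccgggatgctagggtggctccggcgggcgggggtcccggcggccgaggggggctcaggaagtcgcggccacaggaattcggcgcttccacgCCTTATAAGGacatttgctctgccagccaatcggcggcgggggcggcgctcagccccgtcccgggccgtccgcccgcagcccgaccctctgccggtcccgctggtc

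A match describes the sequence and no binding was measured. Between D-CAN and WT/PBS, Myl9, Cnn2 and Vcl differed by 1.36, 1.47 and 0.85 on the log2 scale, and Myl9 by 0.072 after thinning before the rule.

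Interferon response genes stood higher with D-CAN in 9 of 11 compared, with a median of 1.38, and lower in 1, the chemokine gene Cxcl10, at -1.07. Iigp1, an interferon-induced GTPase, was at 3.89, 59.5, 281 and 13.8 CPM, 20.5-fold higher (17.3 to 24.3) with D-CAN than in WT/PBS. Cxcl9, a T cell chemoattractant, was at 3.89, 55.8, 169 and 12.5 CPM. B2m, the light chain of MHC class I, was at 536, 478, 1330 and 506 CPM. All were highest in D-CAN.

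The difference was not particular to members. In KPC tumor cells, the median of the list was 3.25, and Iigp1 was at 140 CPM with D-CAN against 0.478 CPM in its control. W cells had a median of 1.75 and C cells of 0.69. Against Pdgfrb-TK/PBS, the median of members in D-CAN was 1.40. After thinning to 2000 UMIs, a member of D-CAN had a median of 4 UMIs of the list and one of WT/PBS 1 UMI. The interferon-stimulated response element was searched as GAAANNGAAA on both strands and counted in the same way as the CArG box. It was found in 8 of 15 matched genes of the list (53.3%) and in 1131 of 32851 promoters (3.44%). It is shown in capitals for the GTPase genes Igtp, at chr11:58199306-58199605 on the plus strand, and Gbp2, at chr3:142620413-142620712 on the plus strand, where it lies on the other strand.
Igtp: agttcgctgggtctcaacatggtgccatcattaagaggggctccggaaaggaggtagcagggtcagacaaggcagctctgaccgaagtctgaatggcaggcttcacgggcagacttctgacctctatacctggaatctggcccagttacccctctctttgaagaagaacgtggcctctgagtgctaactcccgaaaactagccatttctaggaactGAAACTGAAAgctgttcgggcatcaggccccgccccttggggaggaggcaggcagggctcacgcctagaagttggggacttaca
Gbp2: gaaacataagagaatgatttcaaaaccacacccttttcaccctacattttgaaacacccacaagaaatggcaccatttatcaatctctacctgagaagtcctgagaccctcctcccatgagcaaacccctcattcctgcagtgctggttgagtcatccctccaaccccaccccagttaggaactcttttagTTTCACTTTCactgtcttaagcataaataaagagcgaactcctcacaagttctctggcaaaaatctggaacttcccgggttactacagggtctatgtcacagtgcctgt

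Igtp was at 3.89, 5.58, 23.9 and 2.95 CPM and Gbp2 at 7.77, 20.5, 50.4 and 19.2 CPM. Both were highest in D-CAN. Of the other genes with the motif, B2m, Gbp3 and Isg15 were at log2 differences of 1.39, 1.46 and 1.25, whereas Ifit3, Cxcl10 and Ifit1 were at -0.17, -1.07 and -1.32. Igtp, Gbp3, Ifit1 and Ifit3 stayed under the minimum of 50 CPM and were not among the 11 genes compared.

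Immediate early and heat shock genes had their highest sum in WT/PBS, at 1489, 1141, 2887 and 9567 CPM, although single members of the libraries overlapped. Of 12 compared, 8 were at least 2-fold lower with D-CAN and none higher, with a median of -1.40. Without members that carried 2 epithelial or 3 pericyte markers the median was -0.72. Hspa1a, an inducible HSP70 whose reads cannot be told apart well from those of its near-identical neighbor Hspa1b, was at 113, 54.0, 262 and 2249 CPM. Hspb1, a small heat shock protein outside the list, was at 393, 214, 407 and 4247 CPM, and the co-chaperone genes Dnaja4 and Dnajb1 were 9.61-fold lower and at a log2 difference of -3.14. The level of WT/PBS was thus the highest of the 4, and against Pdgfrb-TK/PBS the median of D-CAN was 1.47.

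Such genes are known to respond to tissue dissociation, and their part in these values was not tested. In KPC tumor cells of the same libraries Hspa1a was at 70.9, 14.0, 87.1 and 444 CPM. C cells of D-CAN differed from those of WT/PBS by a median of -1.78 and W cells by 0.32.

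Inflammatory genes went both ways. Of 13 iCAF genes compared, 4 were at least 2-fold higher with D-CAN and 6 at least 2-fold lower, with a median of -0.43. C3, the central complement component, was at 194, 136, 711 and 111 CPM, 6.39-fold higher (5.96 to 6.85). Ccl2 was at 3.89, 3.72, 170 and 1275 CPM, 7.48-fold lower (6.83 to 8.22) than in WT/PBS, and Cxcl1 and Il6, a neutrophil chemoattractant and a cytokine, were 3.34-fold and 2.86-fold lower. Among low-epithelial members with at most 2 pericyte markers the log2 difference of Ccl2, -2.90, was -2.20, and without members that carried 2 epithelial or 3 pericyte markers -1.74. Neutrophil markers were lower with D-CAN as well, at 52.9 against 113 CPM in sum, and their part in these values was not tested. Cxcl14, the most abundant gene of the list, was at 311, 957, 2274 and 841 CPM. C3 and Cxcl14 were highest in D-CAN and the cytokine genes in WT/PBS, while both Pdgfrb-TK libraries were low in Ccl2 and Cxcl1. Against Pdgfrb-TK/PBS the median of the list was 2.53.

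Other genes of the 10 largest differences toward D-CAN included Aldh1a2, which makes retinoic acid and lies at chr9:71215789-71296243 on the plus strand, at 179, 169, 488 and 39.7 CPM, 12.3-fold higher (11.1 to 13.7). Barx1, a homeobox gene, was 10.9-fold higher, A2m, the protease inhibitor α2-macroglobulin, 9.61-fold, Mrvi1, a regulator of smooth muscle calcium, 9.55-fold, and Ifi27l2a, an interferon-induced gene, 7.26-fold. Against Pdgfrb-TK/PBS, Barx1 was at 0.42 on the log2 scale, under 2-fold, and Aldh1a2, A2m and Mrvi1 at 1.52, 2.04 and 1.28. Thinned before the rule, A2m, Mrvi1 and Ifi27l2a were at 1.85, 2.44 and 3.44, in place of 3.09, 3.08 and 2.75. In C cells, the log2 differences of Spon2 and Aldh1a2 were 7.83 and 4.67, beside 4.34 and 3.59 in members. Igf1, a growth factor, was at 46.6, 121, 349 and 127 CPM. Spon2 and Aldh1a2 were therefore at higher levels in another fibroblast class of D-CAN too.

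Several of the largest differences toward WT/PBS rested on few UMIs in D-CAN. Brinp3, which encodes a BMP and retinoic acid inducible neural protein, at chr1:146494760-146902472 on the plus strand, had 85, 109, 2 and 1861 UMIs in the 4 libraries, or 330, 203, 0.725 and 152 CPM, a 210-fold difference with an interval from 58.1 to 1736. Il1rl1, the receptor of interleukin 33, had 0, 1, 2 and 1175 UMIs, a 133-fold difference (36.6 to 1097), and Prg4, which encodes lubricin, had 1, 6, 1 and 805 UMIs, a 182-fold difference (32.5 to 7188). Brinp3 was thus low in D-CAN alone, while Il1rl1 and Prg4 were low in 3 libraries. Gm15726, a predicted gene, Tac1, a neuropeptide gene and A class rule gene, Gfra1, a GDNF receptor, Ecrg4 and Slpi were the others beside Hspb1 and Dnaja4 above, with Tac1 and Ecrg4 31.4-fold and 15.1-fold lower.

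Of 6 cell cycle genes compared, 4 were at least 2-fold higher with D-CAN, with a median of 1.21. Over all members it was 3 of 8, with a median of 0.60, and among low-epithelial members with at most 2 pericyte markers 2 of 4, with 0.64. After thinning, a member had a median of 1 UMI of the list in both D-CAN and WT/PBS, and 40.6% and 42.9% of members had none. Top2a, a topoisomerase of dividing cells, was at 54.4, 29.8, 95.4 and 15.9 CPM and Mki67 at 38.9, 27.9, 74.0 and 19.6 CPM. Of 13 hypoxia and glycolysis genes, 3 were higher and 1 lower, with a median of 0.60. None of 16 ribosomal protein genes passed 2-fold, with a median of -0.38. Between Pdgfrb-TK/GCV and its control, the intervals of both genes overlapped.

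Low-epithelial members were clustered among themselves into 12 clusters, numbered from the largest. Clusters that come mostly from 1 library may be that library and not a kind of cell, which cannot be told apart with 1 library per condition, and their leading genes describe them without a test. Cluster 0 (242 cells, 98.8% from WT/PBS) was led by Arc, Rrad, Hspa1a, Egr1 and Lsmem1, and its immediate early and heat shock genes summed to 24071 CPM. Cluster 1 (228 cells, 99.1% from WT/PBS) was led by Ngp, Camp, Gm16685, S100a9 and Cxcl5, of which Ngp, Camp and S100a9 are neutrophil genes, and had the highest iCAF sum, at 9779 CPM. Cluster 2 (145 cells, 73.8% from D-CAN) was led by Hand2os1, A2m, Aldh1a2, Hand2 and C3, with contractile genes at 9983 CPM. WT/PBS also gave 97.4% of cluster 6, led by Klhl4, Hmcn1, Lgr5, Prss35 and Brinp3.

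Cluster 3 (144 cells, 93.8% from WT/PBS) was led by Mmp13, a collagenase, with Ccn3, Inhbb, Abat and Igfbp2. Cluster 4 (136 cells, 82.4% from WT/PBS) was led by Col10a1, the collagen of hypertrophic cartilage, with Igfbp5, Tex14, Smim41 and Sfrp4, and cluster 7 (111 cells) by Il1rapl1, Zfp791, Pcdh11x, Mrap and Defb48. Cluster 9 (51 cells) was led by Tnfrsf9, Tafa2, AA467197, Ifit3 and Chil1 and had the highest hypoxia and interferon sums, at 6300 and 4013 CPM. Cluster 10 (33 cells, 63.6% from D-CAN) was led by the proliferation genes Hist1h2ap, Hmmr, Top2a, Prc1 and Kif11, with cell cycle genes at 4218 CPM against 560 CPM in the other members. It held 21 of the 197 low-epithelial members of D-CAN.

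The remaining 3 clusters went against the name of the members. Cluster 5 (135 cells), led by Kcnq5, Klra4, Cdh13, Erc2 and Cdh6, had a median of 1909 UMIs and an epithelial sum of 2388 CPM, the highest of the 12, and is left unnamed. Cluster 8 (68 cells), led by Rgs5, Trpc6, Gja4, Higd1b and Ednrb, had at least 3 pericyte markers in 91.2% of its cells, a pericyte sum of 7326 CPM and the lowest sum of the gate collagens, at 5859 CPM. Cluster 11 (15 cells) was led by Gpihbp1, Cdh5, Plvap, Pcdh17 and Pecam1, genes of endothelial cells, with an endothelial sum of 2787 CPM. Without these 3, the matrix median of low-epithelial members of WT/PBS was 0.77 against all W, C and A cells, beside 0.17 for all members. That pool is not the one that gave 0.55 above, since its C and A cells were not limited by epithelial markers. The contractile median of D-CAN against WT/PBS was then 1.09 and the interferon median 1.39.

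**Figure D5:**
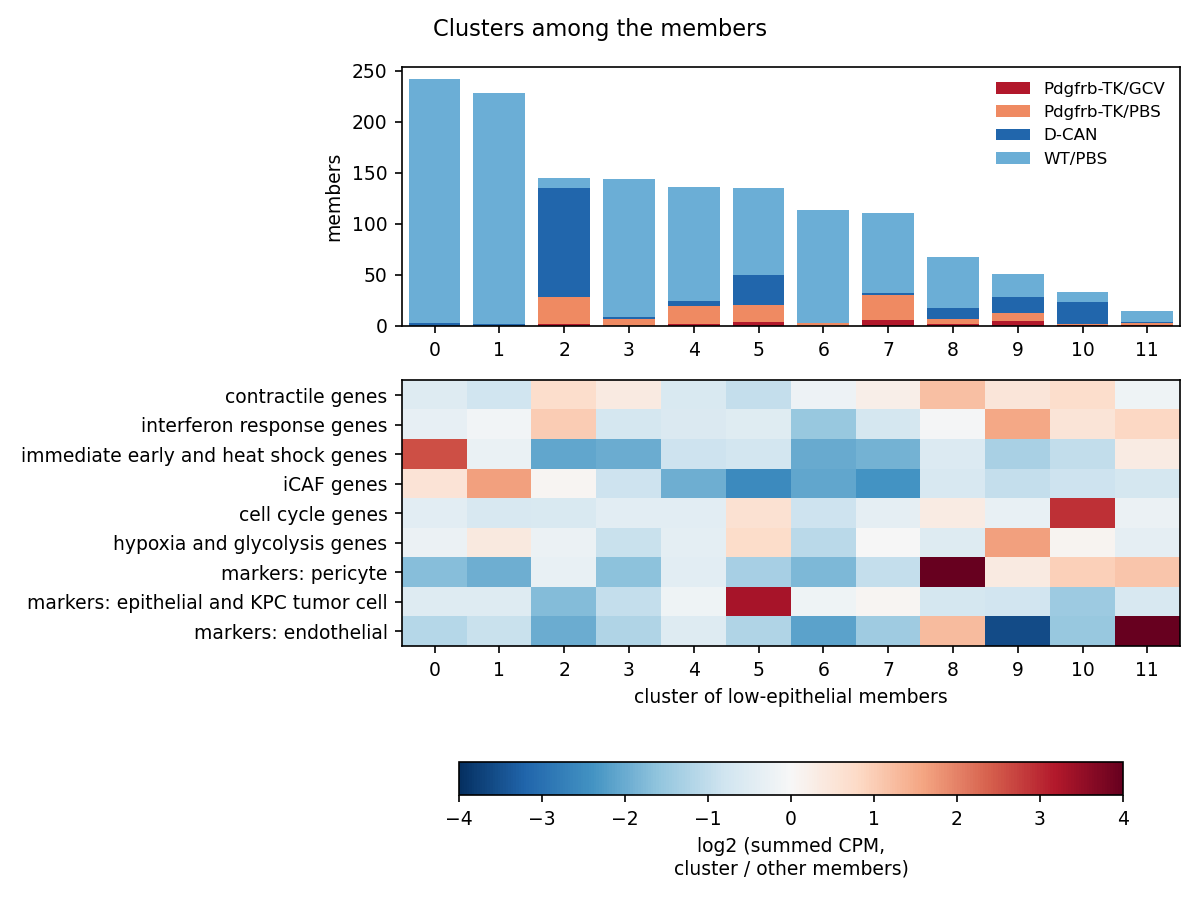
Low-epithelial members in each of 12 clusters by library (top), and summed CPM of gene and marker lists in each cluster against the other members as log2 ratios (bottom, color scale limited to 4 either way). Clusters 0 and 1 come almost wholly from WT/PBS and cluster 2 mostly from D-CAN, and clusters 8, 5 and 11 stand out for pericyte, epithelial and endothelial markers.

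Within libraries, members varied widely in these lists after thinning to 2000 UMIs, which left 21, 92, 175 and 1017 cells. Contractile genes had a median of 14, 10, 15 and 7 UMIs per cell, with a highest cell of 80, 83, 113 and 95. Immediate early and heat shock genes had a median of 2, 1, 4 and 8 UMIs, and 30.5% of members of WT/PBS had at least 20 against 6.86% in D-CAN. iCAF genes had a median of 1, 1, 4 and 3 UMIs. The libraries thus overlapped cell by cell in each list.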

How the data were processed

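Single-cell suspensions of KPC tumor grafts, pooled by treatment, gave 4 libraries. Per the file headers and the labels, the authors made the deposited UMI counts per gene and cell with Cell Ranger 7.0.0 and STAR 2.6 on mm10, not normalized. Libraries were matched to conditions by title, since a protocol text in the labels describes nuclei of another tissue.

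Cells with at least 200 genes were classed by detected rule genes. Counts were summed over low-epithelial members and scaled to CPM, the authors' counts being used as deposited. Genes with at least 100 UMIs in both libraries together and at least 50 CPM in 1 of them were compared, and past 2-fold counts as a difference. With 1 library per condition no test was run. Intervals are Clopper-Pearson for shares, exact Poisson for levels and conditional binomial for folds. Cells were thinned to 2000 UMIs for detection of Col8a1 and for UMIs of lists per cell, but not for detection of the rule genes together or of marker genes. Scrublet doublet scores were computed through scanpy and no cell was removed by them. Clustering used 2000 variable genes, 10 components and the Leiden method. The 10 largest differences each way were named, beside genes of 23 functional and 12 marker lists. Of the genes with the largest differences, 1 is not reported here. Members and lists were chosen with earlier results of these data known. The scripts were tested on simulated data. Python 3.11.15, numpy 2.4.6, scipy 1.17.1, pandas 2.3.3, scanpy 1.11.5, leidenalg 0.10.2 and matplotlib 3.10.9 were used.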

Additional observations from a re-analysis of the deposited data

Results flagged for a closer look

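The libraries of wild-type mice list reporter sequences beside mouse genes, which no comparison above used. In members of WT/PBS, GFPcds stood at 26.4 CPM and Tdtomato at 26.6 CPM, and in members of D-CAN they stood at 2.39 and 6.31 CPM. Their level was above that of KPC tumor cells of the same library, which had 1.51 and 1.06 CPM in WT/PBS and 0.539 and 0.336 CPM in D-CAN. All cells outside the members, tumor cells included, had 10.6 and 9.12 CPM in WT/PBS, under the members, and 4.75 and 5.18 CPM in D-CAN, above the members for GFPcds and under them for Tdtomato. Matrix proteoglycans and cell cycle genes differed in opposite directions between members and the other fibroblasts pooled. The median log2 difference of matrix proteoglycans was 0.70 in Pdgfrb-TK/PBS and -0.54 in D-CAN, and that of cell cycle genes was 0.72 in D-CAN and -0.96 in Pdgfrb-TK/PBS. The pool was mostly W cells in Pdgfrb-TK/PBS (244 of 291) and mostly C cells in D-CAN (495 of 601). Proteoglycans summed to 3921 CPM in those W cells and 10501 CPM in those C cells, beside 4857 and 6085 CPM in low-epithelial members. Cell cycle genes summed to 1142 and 653 CPM, beside 586 and 999 CPM. The difference was not tested in either case.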

How the results depend on the processing

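Of the values that answer a comparison, 18 moved under an alternative and 1 reversed. The matrix median with GCV, 0.11 over all members and not past 2-fold, changed sign under 6 alternatives: -0.036 thinned before the rule, -0.088 without the highest doublet scores, -0.22 with at most 3 epithelial markers, -0.24 with at most 2 pericyte markers as well, -0.18 without clusters 5, 8 and 11 and members with 4 epithelial markers, and -0.64 without members that carried 2 epithelial or 3 pericyte markers. No paired analysis was possible because each condition has 1 library. The reversal came with Pdgfrb-TK/PBS as control of D-CAN, where the share of members was 1.66 times that of the control. With that control the immediate early and heat shock list turned to 1.47, and Tac1 to 1.82, Hspb1 to 0.92, Dnaja4 to 1.26, Fbln5 to 0.079, Ccl2 to 5.18 and Hspa1a to 2.26 on the log2 scale. Set against WT/PBS, the share ratio of GCV was 0.0193, and 731 of 3867 genes were past 2-fold for GCV, with 204 of 3889 for D-CAN set against Pdgfrb-TK/PBS. Within the fibroblast gate, the share ratios were 0.347 and 0.309. Thinning before the rule left 33 of 265 genes past 2-fold for GCV, where 152 of 2270 were past it over all members, and turned Rgs5 with D-CAN to -2.05 and Col18a1 with GCV to -0.41. Without members that carried 2 epithelial or 3 pericyte markers, the share ratios were 0.0874 and 0.329, the matrix median was 0.78 against other fibroblasts, 71 of 255 genes were past 2-fold for GCV, Rgs5 was at -3.25, and Hmga2 and Neat1 with GCV were at -0.42 and -2.59. A minimum of 20 CPM gave 876 of 7314 genes for D-CAN, and no CPM minimum with at least 20 UMIs gave 1133 of 7922 for GCV and 2361 of 14822 for D-CAN. Alternatives chosen after seeing the data were members with at most 3 epithelial and at most 2 pericyte markers (D-CAN share ratio 0.163, 83 of 973 genes for GCV, Rgs5 at -2.24), members with at most 2 pericyte markers (0.153), and low-epithelial members without clusters 5, 8 and 11 (matrix median 0.77). The matrix medians of 0.78 and 0.77 are against all W, C and A cells of WT/PBS, where that of all members was 0.17. The cause of these changes was not tested. The 23 low-epithelial members of Pdgfrb-TK/GCV held 257276 UMIs, which limits every value with GCV.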
